A study of Mus musculus with 92 samples.

Results

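The nuclear-encoded subunits of oxidative phosphorylation were described in quadriceps muscle of 92 mice. Members were the genes whose symbols follow the naming patterns of the subunits of complexes I to V (Nduf with a letter and number, Sdha to Sdhd, Uqcr, Cyc1, Cox4 to Cox8 and Atp5), counted once per gene identifier. They numbered 85 of the 13441 genes in the table, with 39 in complex I, 4 in complex II, 9 in complex III, 15 in complex IV and 18 in complex V. The animals were DOz mice, an outbred stock, about 18 to 20 weeks of age, that had eaten chow throughout life. They formed 1 group, with no treatment, genotype or diet to compare, in a series whose title concerns insulin resistance and very long-chain ceramides of muscle. Each library was made from 500 ng of RNA by mRNA selection, and the values are log2 expression scaled to a common library total.

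Oxidative phosphorylation passes electrons from NADH and succinate through the complexes of the inner mitochondrial membrane to oxygen, and uses the proton gradient this builds to make ATP. The complexes are mosaics: the mitochondrial genome encodes a core of subunits and the nucleus encodes the rest, which are imported. Some complex IV subunits exist in a form made mainly in striated muscle and a form made in most tissues, and the members of such a pair take the same place in the enzyme.

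The muscle libraries carried the marker genes of the labelled tissue. All 8 skeletal muscle markers had mean log2 values from 12.36 to 15.90. The brown adipocyte marker Cidea had a mean of 0.89 (SD 1.66) and a highest value of 6.02, and the other brown adipocyte markers and the testis markers were not analysed here. The 13 mRNAs of the mitochondrial genome made up 9.63% to 22.2% of an animal's summed expression and the 85 members 1.51% to 2.31%. The depth of each library is unknown, since no counts were given. Of the 84 members found in the annotation, 16 had another gene with a near-identical transcript stretch (at least 95% identity over at least 200 bases), and the assignment of reads to these members is uncertain.

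The promoters of complex IV isoform genes are shown because the levels of these pairs are compared further on. Sequences are RefSeq windows of 300 bases (250 before to 50 after the start, build GRCm38.p6), and 68 members had at least 1, with 73 windows in all. Capitals mark matches on either strand to the NRF1 motif, GABPA (CCGGAAG), ERR (AAGGTCA), YY1 (AANATGG), Sp1 (GGGCGG), the CCAAT box (CCAAT), the TATA box (TATAAA) and the muscle E-box (CAGCTG). Matches to different motifs may overlap. Cox7a1 and Cox8b are muscle forms, and Cox7a2, Cox8a and Cox6a1 are the general forms of subunits VIIa, VIII and VIa. Ndufv3, a small complex I subunit, is shown because it ranked first among the genes rising with both muscle forms. The windows are chr7:30183921-30184220 on the plus strand, chr7:140900397-140900696 on the minus strand, chr9:79759804-79760103 on the minus strand, chr19:7217567-7217866 on the minus strand, chr5:115348909-115349208 on the minus strand and chr17:31519865-31520164 on the plus strand. Cox6a2 was not matched.
Cox7a1: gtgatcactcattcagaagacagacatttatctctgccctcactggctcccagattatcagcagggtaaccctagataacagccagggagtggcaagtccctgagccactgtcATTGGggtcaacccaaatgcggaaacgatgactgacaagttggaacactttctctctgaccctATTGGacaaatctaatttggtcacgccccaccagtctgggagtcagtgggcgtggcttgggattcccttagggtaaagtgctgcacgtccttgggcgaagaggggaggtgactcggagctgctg
Cox8b: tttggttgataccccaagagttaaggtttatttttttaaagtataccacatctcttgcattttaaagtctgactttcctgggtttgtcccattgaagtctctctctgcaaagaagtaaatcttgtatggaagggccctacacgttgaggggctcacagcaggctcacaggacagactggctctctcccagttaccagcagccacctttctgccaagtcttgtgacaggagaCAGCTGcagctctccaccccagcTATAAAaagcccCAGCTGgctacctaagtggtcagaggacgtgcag
Cox7a2: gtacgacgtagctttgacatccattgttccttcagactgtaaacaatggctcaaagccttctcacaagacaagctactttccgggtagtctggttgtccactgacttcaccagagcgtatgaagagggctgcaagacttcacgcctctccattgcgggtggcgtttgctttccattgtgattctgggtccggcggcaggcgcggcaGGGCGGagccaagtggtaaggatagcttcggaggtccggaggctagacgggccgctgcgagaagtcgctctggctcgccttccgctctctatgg
Cox8a: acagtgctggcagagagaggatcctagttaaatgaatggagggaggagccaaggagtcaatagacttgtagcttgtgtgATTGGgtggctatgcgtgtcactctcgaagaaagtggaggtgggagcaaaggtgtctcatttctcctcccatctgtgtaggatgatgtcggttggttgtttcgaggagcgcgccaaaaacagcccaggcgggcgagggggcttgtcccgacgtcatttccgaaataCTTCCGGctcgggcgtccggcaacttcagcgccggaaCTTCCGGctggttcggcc
Cox6a1: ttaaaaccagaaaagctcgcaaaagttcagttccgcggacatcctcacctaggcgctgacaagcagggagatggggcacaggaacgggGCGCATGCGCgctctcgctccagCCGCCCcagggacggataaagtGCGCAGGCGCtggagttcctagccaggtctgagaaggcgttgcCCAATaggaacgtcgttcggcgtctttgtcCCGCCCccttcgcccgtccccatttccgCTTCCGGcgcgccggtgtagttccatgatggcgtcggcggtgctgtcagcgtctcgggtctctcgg
Ndufv3: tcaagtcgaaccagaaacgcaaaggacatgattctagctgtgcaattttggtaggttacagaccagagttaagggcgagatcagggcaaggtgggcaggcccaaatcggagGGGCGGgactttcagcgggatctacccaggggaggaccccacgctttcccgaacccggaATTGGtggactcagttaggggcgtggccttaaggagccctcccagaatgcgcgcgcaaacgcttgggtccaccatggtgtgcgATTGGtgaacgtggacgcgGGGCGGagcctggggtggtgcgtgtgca

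The Cox6a1 window held 6 matches, including 2 to NRF1 and 1 to GABPA, and that of Cox8a held 2 to GABPA. The windows of Cox7a1, Cox8b and the general form Cox7a2 had no match to NRF1, GABPA or ERR, which says only that these letters were not there. That of Cox7a2 held 1 Sp1 match. Cox7a1 held 2 CCAAT boxes, and Cox8b held 2 muscle E-boxes and 1 TATA box. Over the 73 member windows, the NRF1 letters were in 19, against 4.60% of all 32851 windows and 9.46% of those of genes in the table. The ERR letters were in 12.3% of member windows and in 3.36% of those of genes in the table, and the YY1 letters in 30.1% and 14.6%. GABPA letters stood at 21.9% and 16.6%. The Sp1 letters were in 27 of the 73 member windows, against 35.7% of all windows and 60.6% of those of genes in the table. Muscle E-box letters were in 9.59% of member windows and in 15.6% of those of genes in the table. By complex, NRF1 letters were in 8 of 36 windows of complex I, 2 of 3 of complex II, 1 of 5 of complex III, 1 of 11 of complex IV and 7 of 18 of complex V. A match is a description of the sequence, and no binding was measured.

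The members were highly expressed and varied little between animals. Their median gene mean was 7.19 on the log2 scale against 3.48 over all genes. Their median SD was 0.18 against 0.32. Highly expressed genes as a whole vary less, so each SD was set against the SD that genes of the same mean had along a smooth trend. On that scale the median member lay 0.16 log2 units below the trend (-0.16), the median of all genes was at -0.01, and 23 of 85 members (27.1%) lay above the trend against 49.1% of all genes. In bulk tissue, fewer cells of a type and less RNA per cell cannot be told apart.

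**Figure D1:**
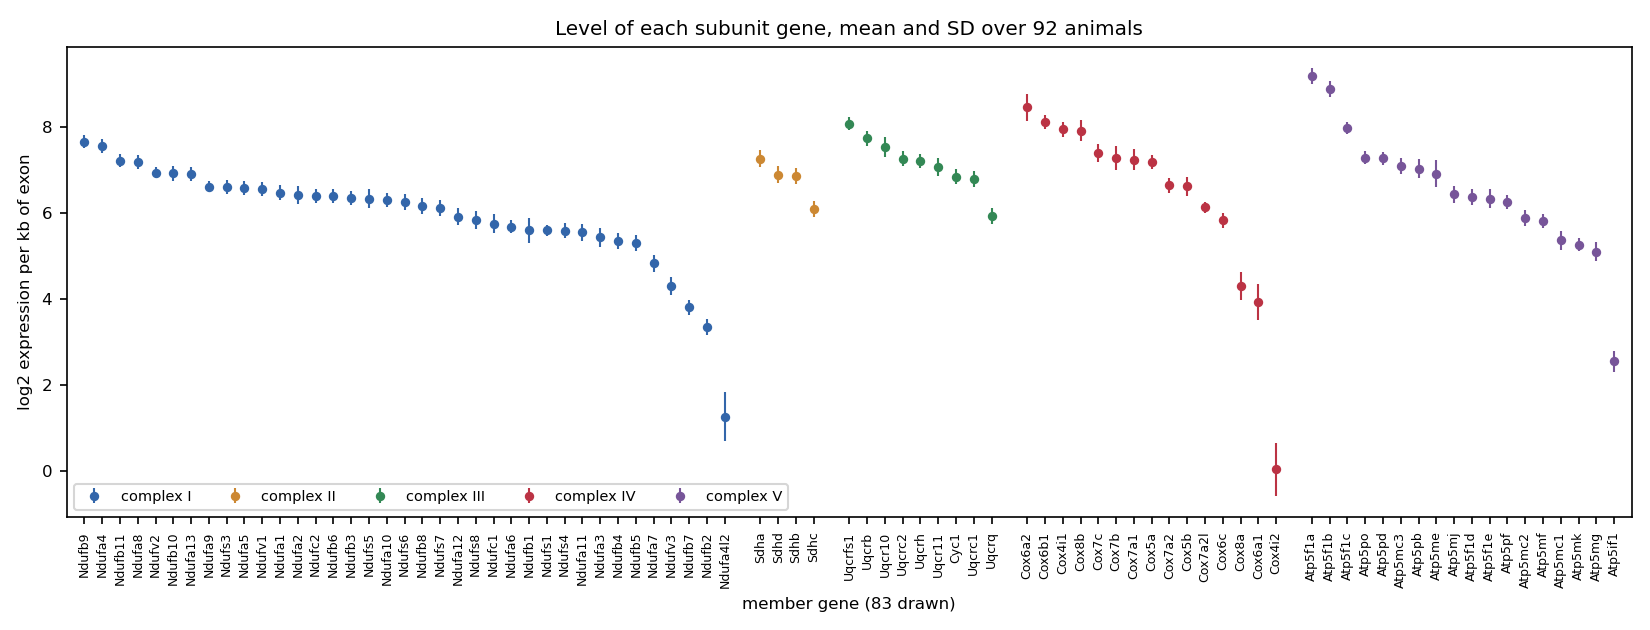
Level of 83 member genes by complex (vertical axis, log2 expression per kb of exon; points are means and bars SDs over 92 animals). Most members lie between 5 and 8, while Ndufa4l2 at 1.25, Cox4i2 at 0.03 and Atp5if1 at 2.54 lie far below their complexes.

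Complex I, the NADH dehydrogenase, had a median level per kb of exon of 6.28. Ndufb9, an accessory subunit, stood at 7.66, and Ndufa4, long counted as a subunit of this complex, at 7.56. Ndufa4l2, a hypoxia-inducible relative of Ndufa4, was the lowest at 1.25, and ranged from 0.00 over a median of 1.44 to 2.52 in log2 expression. Its SD of 0.57 was the largest of the complex. Ndufs1, the largest core subunit, had the smallest SD of all members (0.14), with a lowest value of 8.24, a median of 8.61 and a highest of 8.94. The accessory subunit Ndufb1 ranged from 5.07 to 6.39 (SD 0.29), and 9 of the 39 members of the complex lay above the spread trend.

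Complex II, succinate dehydrogenase, has no subunit from the mitochondrial genome. Sdha, the flavoprotein that oxidises succinate, was its highest member at 7.27 per kb, and the membrane anchor Sdhc its lowest at 6.09. The 4 genes had SDs from 0.18 to 0.19, and none lay above the trend. Sdhb, the iron-sulfur subunit, and Sdhd, the other anchor, stood at 6.87 and 6.89 per kb, closer than their SDs of 0.19. That closeness rests on the length: with the longest transcript Sdhb was at 7.73 and Sdhd at 6.89.

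Complex III, the cytochrome bc1 complex, had levels per kb from 5.93 to 8.08. Uqcrfs1, the Rieske iron-sulfur protein, was the highest at 8.08 and had the smallest SD (0.15), and Uqcrq was the lowest. With the longest transcript as the length Uqcrb was higher than Uqcrfs1, at 8.37 against 8.08. Cyc1, the cytochrome c1 subunit, stood at 6.84 per kb. The small subunit Uqcr10 had the largest SD of the complex (0.23), with a lowest value of 6.35, a median of 6.76 and a highest of 7.40, and was the only member of the 9 above the trend.

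Complex IV, cytochrome c oxidase, spread most relative to level, with 8 of 15 members above the trend and a median of 0.07. Cox6a2, the muscle form of subunit VIa, was its highest member at 8.46 per kb of exon and lay furthest above the trend of all 85 (0.62). With the longest transcript as the length Cox4i1 was higher, at 8.97 against 8.46. Cox6a2 ranged from 7.25 over a median of 7.88 to 8.69. Cox4i2, the lung form of subunit IV, was the lowest at 0.03 per kb and had the largest SD of all members (0.61). Its mean log2 value was only -0.31, and relative to genes of that mean it lay below the trend (-0.15). Cox7a2l, known for its part in joining complexes III and IV, had the smallest SD of complex IV (0.14).

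Complex V, ATP synthase, held the highest members of all. The catalytic core genes Atp5f1a and Atp5f1b stood at 9.19 and 8.89 per kb. Atp5f1a ranged in log2 expression from 10.37 to 11.26, and Atp5f1b from 10.62 to 11.43. Atp5if1, the inhibitor of the synthase, was the lowest at 2.54 per kb, with a lowest log2 value of 2.53, a median of 3.08 and a highest of 4.11. Atp5f1c, the gamma subunit of the central stalk, had the smallest SD (0.14), and Atp5me, a membrane subunit, the largest (0.31, from 5.33 to 7.04). Together the complex V genes took 0.723% of summed expression, those of complex I 0.511%, complex IV 0.226%, complex III 0.214% and complex II 0.126%.

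**Figure D2:**
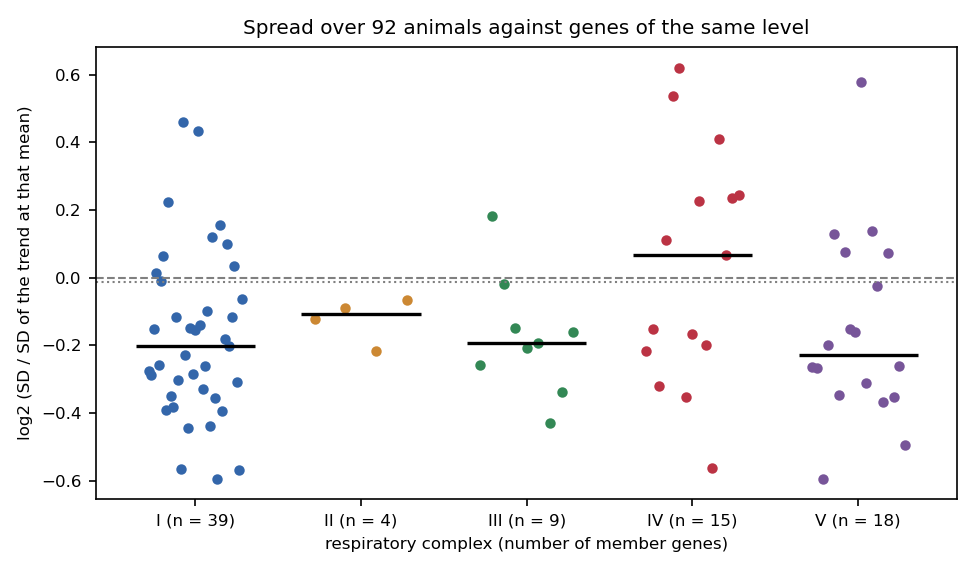
Spread of each member over 92 animals relative to genes of the same mean (vertical axis, log2 ratio of SDs; dashed line at the trend, dotted line at the median of all genes, bars at complex medians). Complex IV alone of the 5 has its median, 0.07, above the trend line.

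The muscle forms of complex IV subunits exceeded the general forms in every animal once each gene was divided by its exon length. Cox6a2 exceeded Cox6a1 by 4.54 ± 0.45 log2 units (SD, n = 92), a 23.2-fold difference, with a range from 3.08 to 5.44. Cox8b exceeded Cox8a by 3.61 ± 0.32, a 12.2-fold difference, with a range from 2.17 to 4.25. The Cox8b difference was 2.83 without the division and 3.44 with the longest transcript as the length. Cox7a1 exceeded Cox7a2 by only 0.60 ± 0.18, with a range from 0.15 to 0.96. That order rests on the length: without the division Cox7a1 was the lower by -0.22 on average and higher in 9 of 92 animals, and with the longest transcript as the length the difference was 0.22. The 8 pairs compared each reached the smallest p-value that the two-sided sign-flip permutation test could give (1e-05), as did the Benjamini-Hochberg values over the 8. The test reached the same p-value for Cox7a1 minus Cox7a2 and Cox7a2l minus Cox7a2 without the division, where both signs were opposite. It therefore does not decide the direction of these pairs.

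Cox4i2 and Ndufa4l2, alternative forms of other subunits, were low. Cox4i2 lay below Cox4i1 by a mean difference of -7.92 ± 0.61 log2 units per kb. The size is uncertain for so low a gene. It was -8.89 without division by length, -8.83 with the longest transcript and -6.72 with log2(value + 1). Ndufa4l2 lay below Ndufa4 by -6.30 ± 0.57. Among the 3 genes that encode the same mature c subunit of the rotor, Atp5mc3 was the highest in all 92 animals, with Atp5mc1 at -1.74 ± 0.12 and Atp5mc2 at -1.22 ± 0.17 relative to it. Both stayed below it under each length, but their sizes and order did not: without division by length Atp5mc1 was at -0.57 and Atp5mc2 at -1.60, and with the longest transcript they were at -3.02 and -1.41. Cox7a2l lay below Cox7a2 by -0.51 ± 0.14 in all 92 animals, and without division by length the sign turned to 0.13. Cox6b2, the testis form of subunit VIb, was not analysed here.

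**Figure D3:**
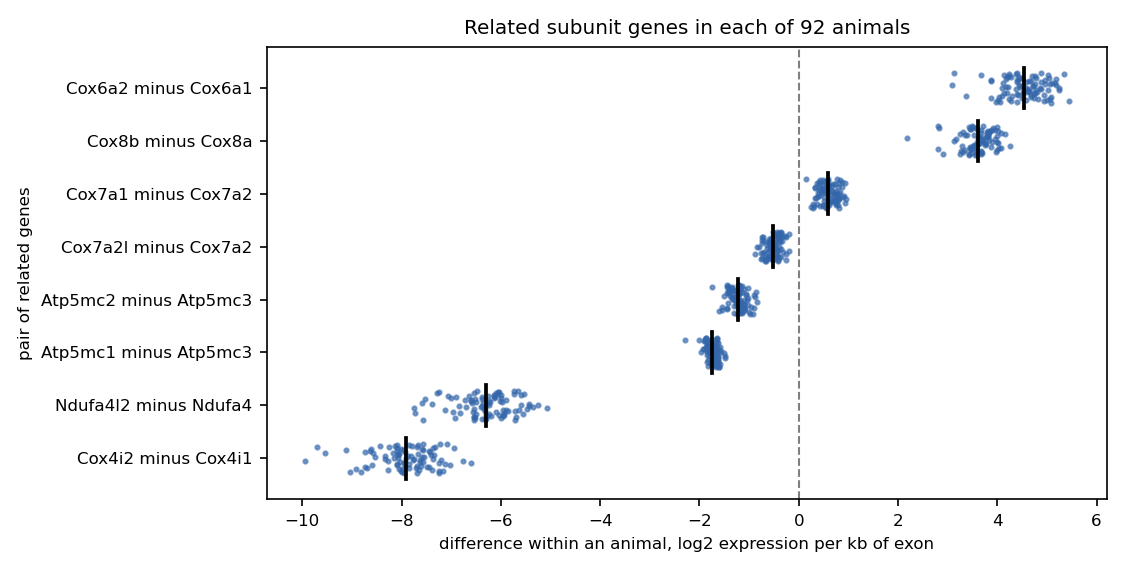
Difference between related subunit genes within each animal (horizontal axis, log2 expression per kb of exon; 92 points per pair, bar at the mean). Cox6a2 minus Cox6a1 and Cox8b minus Cox8a lie above 2 in all animals, and Cox7a1 minus Cox7a2 lies between 0.15 and 0.96.

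The general forms Cox6a1 and Cox8a varied together. Cox6a1 had a lowest value of 2.78, a median of 3.33 and a highest of 5.46, and Cox8a 3.03, 3.59 and 5.15. Each had a few animals far above the rest. Across the 92 animals Cox6a1 correlated with Cox8a at r = 0.86 (rho = 0.76), and at r = 0.79 without the 2 animals farthest from the Cox6a1 median. Cox6a1 correlated with its muscle counterpart Cox6a2 at r = 0.26 (rho = 0.17), and Cox8a with Cox8b at r = 0.37 (rho = 0.39). These correlations are descriptions, since all genes share the same libraries. Markers of some other cells moved with the general forms: the mean of 10 adipocyte markers correlated with Cox6a1 at r = 0.58 (rho = 0.53; r = 0.47 without the 2 animals farthest from the Cox6a1 median), that of 8 macrophage markers at r = 0.45 (rho = 0.48) and that of 8 fibroblast markers at r = 0.33 (rho = 0.36). With Cox8a these were r = 0.44, 0.44 and 0.27, and the adipocyte value was 0.28 without the 2 animals farthest from the Cox8a median. Endothelial, Schwann cell and blood markers stood at r = -0.05, 0.17 and 0.06 with Cox6a1 and at -0.09, 0.09 and 0.02 with Cox8a. Ndufa4l2 correlated with the mean of 8 endothelial markers, at r = 0.52 (rho = 0.53), with that of 8 Schwann cell markers at r = 0.38 (rho = 0.42), with that of 6 blood markers at r = 0.23 (rho = 0.17) and with that of the adipocyte markers at r = 0.01. Macrophage and fibroblast markers stood at r = 0.04 and 0.10. All markers of the adipocyte, macrophage, fibroblast and endothelial lists were measured, with mean log2 values from 1.56 to 9.35 for adipocytes, 1.59 to 5.38 for macrophages, 4.32 to 7.95 for fibroblasts and 2.52 to 6.14 for endothelium. The part of these cells in the levels was not tested.

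The members rose and fell together across animals. Over the 3570 pairs of members the median Pearson r was 0.54 (Spearman rho 0.51), with 42 pairs below 0, while the median over all pairs of genes was -0.00. An animal's mean deviation of the 85 members from their gene means ran from -0.29 to 0.44. Pairs within a complex (median r 0.57) were little closer than pairs between complexes (0.53). Complex V was the tightest at 0.59, with complex I at 0.57, complex III at 0.54, complex IV at 0.49 and complex II at 0.43. The closest pair was Ndufv2 and Ndufa4 (r = 0.90), followed by Atp5f1b and Cox4i1 (r = 0.89). The most opposed pair was Uqcrc2, a core protein of complex III, and Ndufa4l2 (r = -0.21). With the first 3 principal components of all genes removed, the median over member pairs was 0.42, and the order of the complexes changed to complex III at 0.51, complex V at 0.46, complexes II and I at 0.42 and complex IV at 0.36.

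**Figure D4:**
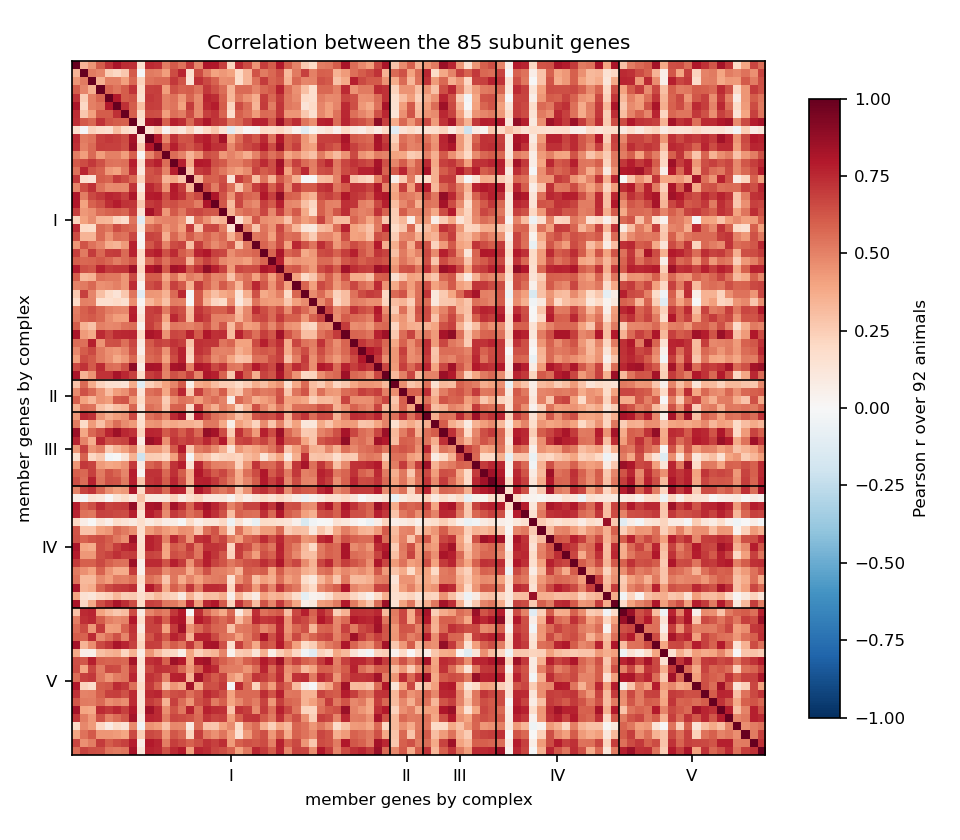
Pearson r over 92 animals between all 85 members, ordered by complex and then by name, with black lines between complexes (colour scale from -1 to 1). Most of the map is positive at a median of 0.54; the pale stripes are members such as Ndufa4l2, Cox4i2, Cox6a1, Cox8a and Atp5if1.

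The shared rise of the members was also shared with the cytosolic ribosomal proteins. The mean deviation of 77 genes of cytosolic ribosomal proteins correlated with that of the members at r = 0.72 (rho = 0.66) over 92 animals. The ribosomal mean deviation ran from -0.32 to 0.50. What the sets share was not tested.

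Slopes of every gene on 8 predictors were fitted with limma, per SD of the predictor, with Benjamini-Hochberg adjustment over all genes. The muscle forms of complex IV are members themselves, so calls among the other members were to be had from the shared variation above. Their r with the mean of the other members was 0.54 for Cox6a2, 0.79 for Cox7a1 and 0.71 for Cox8b, below the 0.94 of Ndufb9. With Cox7a1, 79 of the other 84 members rose and none fell at an adjusted p under 0.05, where 6.29% of all genes rose and 6.18% fell. By complex the counts were 37 of 39 in complex I, 4 of 4 in complex II, 9 of 9 in complex III, 12 of 14 in complex IV and 17 of 18 in complex V. The members not called were Atp5pb, Cox4i2, Ndufb4, Ndufa4l2 and Cox6a1. The largest slopes were those of Atp5me (0.24 ± 0.02, SE), Ndufb4b (0.21 ± 0.02), Ndufb1 (0.19 ± 0.02), Cox8b (0.18 ± 0.02) and Atp5f1e (0.18 ± 0.01), all small subunits. The genes of the largest moderated t were all members: Ndufv3, Uqcr11, Ndufs6, Atp5f1e and Atp5me.

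With Cox8b, 71 of 84 members rose and none fell, where 8.5% of all genes rose and 8.85% fell. Atp5me, Ndufb4b, Ndufb1, Cox6a2 and Cox7a1 had the largest slopes, from 0.18 to 0.24. Ndufv3 had the largest moderated t of all genes, ahead of Rps29, a ribosomal protein, and then Uqcr11, Ndufa2 and Ndufa1. With Cox6a2, 62 of 84 members rose and none fell, where 3.54% of all genes rose and 1.56% fell. Its largest member slopes were those of Ndufb4b (0.17), Cox8b, Atp5me, Ndufb1 and Atp5f1e, and its largest moderated t was that of Fmc1, an assembly factor of ATP synthase, ahead of Ndufb2, Ndufa1, Bcl7c and Ndufv3. The count for Cox6a2 fell to 41 without the 2 animals farthest from its median, where 1.41% of all genes were called. With 3 principal components in the model the counts were 26 for Cox6a2, 39 for Cox8b and 62 for Cox7a1, where 1.02%, 2.78% and 3.30% of all genes were called.

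Length and ribosomal protein genes moved along these slopes. Of the 77 cytosolic ribosomal protein genes, 63 rose with Cox7a1, 72 with Cox8b and 33 with Cox6a2. Among all genes with a longest transcript under 1 kb, 32.7% rose with Cox7a1, against 2.17% of genes of 3 kb or more. The falling shares went the other way, at 0.93% and 9.78% with Cox7a1 and at 0.93% and 13.9% with Cox8b. Of all genes of 1 to 3 kb, 9.44% rose with Cox7a1. Among the members, 42 of 43 of 1 kb or more rose with Cox7a1, and 36 of 40 shorter ones. For Cox8b these counts were 34 of 43 and 36 of 40. The part of length in the slopes was not tested. Of 8 skeletal muscle markers, 6 rose with Cox8b, 2 with Cox7a1 and 1 with Cox6a2, and their part in the slopes was not tested. The 17 listed regulators of mitochondrial genes (Ppargc1a, Esrra, Nrf1, Gabpa, Tfam and others) had 0 calls with Cox6a2, Cox7a1 or Cox8b, and 0, 2 and 1 at an unadjusted p under 0.05, where 2785, 3360 and 3937 of 13440 genes passed. Of the assembly factors, 8 of 19 of complex IV and 6 of 14 of complex I rose with Cox7a1, as did 1 of 4 of complex II, 2 of 6 of complex III and 0 of 3 of complex V. Of 18 genes of the tricarboxylic acid cycle and its carriers, 10 rose with Cox7a1, 5 with Cox8b and 8 with Cox6a2. Of the 13 mitochondrial mRNAs, 2 rose with Cox7a1, 2 with Cox8b and 0 with Cox6a2.

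Few members were called along the level of the mitochondrial mRNAs. With that level 1 of 85 members rose, where 0.126% of all genes were called in either direction. Of those 17 genes, 12 were mitochondrial mRNAs, from which the predictor is made. It was Ndufs3, a core subunit of complex I (slope 0.07 ± 0.02, adjusted p = 0.029), which has a near-identical gene. The call was lost with 3 principal components or 6 marker scores in the model, which gave 0 members, where 0.119% of all genes were called in each. At an unadjusted p under 0.05, 51 of 85 members and 1289 of 13441 genes passed. The median member slope was 0.04, and the median of all genes was -0.00. With 3 principal components 37 members passed unadjusted, and with 6 marker scores 46. All genes passing unadjusted were not counted in these fits. The median member slopes were 0.0265 and 0.0393, where the medians of all genes were 0.0003 and -0.0004. Between the lowest and the highest animal, the mean deviation of the mitochondrial mRNAs ran from -0.87 to 0.62, a wider range than that of the members.

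Ppargc1a, the coactivator best known for driving mitochondrial genes, ranged from 4.54 over a median of 5.55 to 8.30. With it 2 of 85 members were called, where 7.43% of all genes were called in either direction. Uqcrc2 rose (0.08 ± 0.02, limma adjusted p = 0.0028) and Ndufa4l2 fell (-0.19 ± 0.06, adjusted p = 0.028). No member fell with the title-number block (1 rose), the 6 marker scores (2 rose) or 3 principal components (17 rose) in the model. Of all genes, 3.71%, 7.86% and 2.86% were called in these fits, so with 3 principal components the members went from below to above the share of all genes. With Myh2, the myosin of fast oxidative fibres, 1 of 85 members was called, where 5.26% of all genes were. It was again Uqcrc2 (0.08 ± 0.02, limma adjusted p = 0.00094), while all 9 slow fibre genes rose with Myh2. With 3 principal components 19 members rose, where 2.39% of all genes were called, and the members again went from below to above that share. With Myh7, the slow myosin, limma called 0 of 85 members and 4 passed at an unadjusted p under 0.05, where 0.171% of all genes were called and 718 of 13440 passed unadjusted. Of the 18 tricarboxylic acid cycle and carrier genes, 5 rose with Ppargc1a and 5 with Myh2.

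Cers2 makes very long-chain ceramides, the lipids named in the series title. With Cers2 3 of 85 members rose and none fell, where 4.08% of all genes rose, so the members' share was close to that of all genes. They were Ndufa4l2 (0.22 ± 0.05, limma adjusted p = 0.009), Cox6a1 (0.16 ± 0.04, adjusted p = 0.010) and Cox8a (0.12 ± 0.03, adjusted p = 0.0094). Among the others, Cox6a2 had a slope of 0.08 ± 0.03 (adjusted p = 0.082) and Cox8b one of 0.03 ± 0.03 (adjusted p = 0.45). The difference between these slopes was not tested. Along Cers2, 7 of 8 macrophage markers, 7 of 8 fibroblast markers, 4 of 8 Schwann cell markers, 2 of 10 adipocyte markers and 1 of 8 endothelial markers rose. With the 6 marker scores in the model 1 member and 0.476% of all genes were called, and with 3 principal components 0 members and 0.00744%. Without covariates, 12 of 85 members and 3205 of 13440 genes passed at an unadjusted p under 0.05. With the 6 marker scores 48 of 85 members passed unadjusted, and with 3 principal components 5. All genes passing unadjusted were not counted in these fits. The median member slope was 0.020 without covariates, 0.047 with the marker scores and 0.008 with the components. The medians of all genes were 0.0011, 0.0004 and 0.0017.

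No member had a split level of 1 log2 unit or more. A split was defined on the sorted values of a gene as a step of at least 1 log2 unit that left 5 or more animals above it and 5 or more below. None of the 84 members with a mean of at least 1 had one, where 0.351% of 11116 genes did. Ndufs1 ranged only from 8.24 to 8.94, and in members of so small a range this rule could find no split. The widest step with 5 or more animals on each side was 0.21 in any member, that of Cox4i2. The slopes planned for members with such a split therefore had no predictor.

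The residual of Cox7b had few animals between a low and a high range, with no wide step. For each member, the part not given by the mean of the other members was kept as its residual. Cox7b, a small complex IV subunit on the X chromosome (chrX:106015700-106022450, plus strand), ranged from 6.91 over a median of 7.57 to 8.10, and its residual had an SD of 0.22. Of the 92 animals, 23 had a residual under -0.2, with a median of -0.37, and 64 had one over 0, with a median of 0.13. The other 5 animals lay between, and the widest step between neighbouring animals was 0.07. The lower animals were in every block of title numbers, at 8 of 33, 4 of 14, 5 of 21, 3 of 11 and 3 of 13. Its bimodality coefficient, a measure from skewness and kurtosis, was the highest of the 85 members at 0.78, with Ndufb5 next at 0.52 and Uqcr10 at 0.51. Cox7b has 2 near-identical genes, which makes its reads uncertain.

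**Figure D5:**
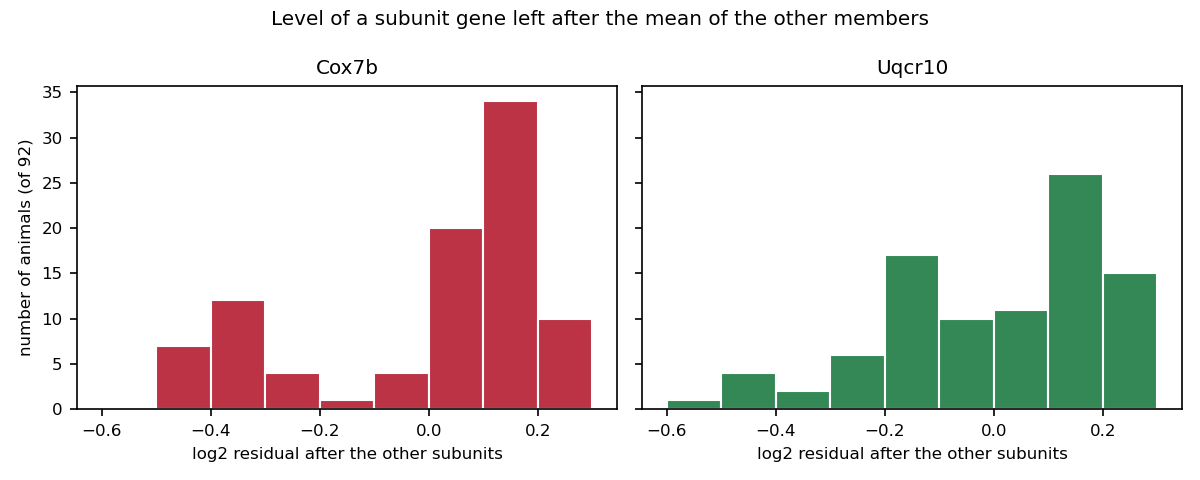
Number of animals (vertical axis, of 92) by the log2 residual of Cox7b and of Uqcr10 after the mean of the other members (horizontal axis, bins of 0.1). Cox7b has 23 animals under -0.2 and 5 between -0.2 and 0, and Uqcr10 is drawn out to the left with 13 animals under -0.2.

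Genes near Cox7b were among the few that went with its residual. With limma, 10 of 13440 genes (0.0744%) were called, and 7 of them were among the 41 genes within 5 Mb. Magt1, a magnesium transporter gene 48 kb away, was first (slope 0.16 ± 0.02, adjusted p = 9.2e-08). Pbdc1, 936 kb away, also rose (0.16 ± 0.03, limma adjusted p = 7.9e-05). The long non-coding genes Jpx and Ftx also went with it, Jpx rising (0.18 ± 0.03) and Ftx falling (-0.23 ± 0.04). For Uqcr10 (chr11:4701973-4704342, minus strand), 10 genes (0.0744%) were called, and 9 lay within 5 Mb. The first was 8430429K09Rik, 1250 kb away (slope 0.64 ± 0.06, limma adjusted p = 1.1e-13), with Mtfp1 and Pes1 next. For Ndufs8, 10 of 15 called genes (0.112% of all) lay within 5 Mb.

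This was a wider pattern among the members. In 17 of 84 members (20.2%) the gene closest to the residual lay within 5 Mb of the member, where such windows held 0.61% of genes. The 17 were Sdhd, Sdha, Atp5pb, Atp5f1d, Atp5mf, Atp5mg, Cox6c, Cox6a2, Cox7b, Ndufs7, Ndufs8, Ndufb8, Ndufc1, Ndufc2, Ndufa7, Ndufa13 and Uqcr10. In none of them did the first gene overlap the member's own gene body in the annotation. Atp5f1d and Ndufs7 lie close together on chromosome 10. Both had Sgta, Jsrp1, Wdr18 and Cdc34 among their called genes, so the 17 are not all separate loci. Sdhd had Plet1os at 108 kb (slope 1.23 ± 0.15, limma adjusted p = 7.7e-09), with 0.134% of all genes called. Ndufb8 had Hif1an at 14 kb (0.18 ± 0.02, limma adjusted p = 5.7e-08), with 0.0744% called. Cox6a2 had Ctf2 at 487 kb with the opposite sign (-0.41 ± 0.07, limma adjusted p = 0.00037) and 0.223% called. Atp5mg had Mcam at 778 kb, also opposite (-0.29 ± 0.04, limma adjusted p = 4.7e-08), with 0.811% called. Over all 84 members, 4.81% of gene and member pairs within 5 Mb were called, against 2.16% of all pairs.

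Some residuals instead went with genes across the genome. That of Uqcrc2, which correlated with the other members at r = 0.39, had 2387 genes called (17.8%) with Dld, a dehydrogenase subunit of the tricarboxylic acid cycle, first. That of Cox6a1 (r = 0.14 with the other members) had 6.95% of genes called, with Pgam1 of glycolysis first. That of Cox8a had 9.28% called, with Cox6a1 first.

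The title numbers of the animals fall into 5 blocks of 33, 14, 21, 11 and 13, whose meaning the labels do not give. Between blocks limma called 0 of 85 members and 4 passed at an unadjusted p under 0.05, where 0.0149% of all genes were called and 1120 of 13441 passed unadjusted.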

How the data were processed

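The deposited table holds log2 expression values, which the authors made from sequencing reads. Per the submitters' processing notes, bcl2fastq, MultiQC, kallisto 0.50.1, edgeR and build mm10 were used. Linear values of an animal summed to between 898071 and 1140761, so the log2 values were read as scaled to a common library total. Read counts and depth are not given in the sources used here, and precision comes from the spread between animals. After 15 repeated lines were removed from 13456, 13441 genes remained. Exon lengths are those of GENCODE M21 (GRCm38).

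Slopes were fitted over all genes with limma 3.58.1 (trend, Benjamini-Hochberg) in R 4.3.3, and pairs by sign-flip permutation (100000 resamples). Both were tested on simulated data. Spread is the log2 ratio of SD to a lowess trend. The genes named are the listed pairs, the highest, lowest, most and least variable member of each complex, up to 5 called members per slope, and the 5 closest genes of Cox6a2, Cox7a1 and Cox8b; others were named after their values were seen. A member that this rule names is not reported here. Residuals, ribosomal protein genes, transcript lengths and single marker correlations were added after the data were seen. The members and lists were chosen with earlier results of these data known. The labels identify animals only by sample title, so p-values measure only the spread between these samples.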

Additional observations from a re-analysis of the deposited data

How the results depend on the processing

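Over 84 alternatives of 21 results, 70 were counted as unchanged, 12 counts moved and 2 differences reversed. A pair difference counted as unchanged when its sign and its call at p under 0.05 stayed. Its size could still move, as for Atp5mc1 minus Atp5mc3. Without division by length, Cox7a1 minus Cox7a2 was -0.22 and Cox7a2l minus Cox7a2 was 0.13. With the title-number block as covariate, 2 members were called on the mitochondrial mRNA level (0.126% of all genes) and 1 on Ppargc1a (3.71%). With 6 marker scores the 2 members called on Ppargc1a were 2 rising and 0 falling, against 1 and 1. With 3 principal components, the counts were 0 for the mitochondrial mRNA level (0.119% of all genes), 17 for Ppargc1a (2.86%) and 19 for Myh2 (2.39%). In the same setting they were 0 for Cers2 (0.00744%), 26 for Cox6a2 (1.02%) and 39 for Cox8b (2.78%). With 6 marker scores they were 0 for the mitochondrial mRNA level (0.119% of all genes) and 1 for Cers2 (0.476%). Without the 2 animals farthest from the predictor's median, they were 2 for the mitochondrial mRNA level (0.134% of all genes) and 41 for Cox6a2 (1.41%). The cause was not tested. The number of members whose closest gene lay within 5 Mb was 17 with the block, 19 with 3 principal components and 16 for a window of 2 Mb, alternatives chosen after seeing the data. No split was called in a member for a step of 0.7 or 1.5 or for 3 animals a side. No paired analysis was possible because the animals form 1 group, so no samples pair across groups; the isoform differences are within animals.

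Exon lengths of short genes depend on the annotated transcripts, so orders of levels between members are less certain than the log2 values. Library depth, which limits the low members, is unknown.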
